A study of Mus musculus with 18 samples.

Results

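The genes described here carry methionine through the methyl cycle and on to cysteine in liver. They were fixed by name as 9 genes, Mat1a, Mat2a, Gnmt, Bhmt, Ahcy, Cbs, Cth, Gamt and Cdo1, and each was read from the annotated probe set with the highest mean over the 18 arrays. Of the 9, 8 had a named probe set and all 8 were bright enough to test, among 12578 genes tested of 18193 named. Mat2a, which encodes the methionine adenosyltransferase found mainly outside hepatocytes, had no probe set named for it and is not analysed here.

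The study compared livers of male mice 12 weeks of age that lacked cytochrome P450 reductase in hepatocytes with livers that kept it, on 3 dietary fats. Knockout mice were Alb-Cre+/-/POR-lox+/+ and control mice Alb-Cre-/-/POR-lox+/+, so both genotypes carried floxed POR alleles and the knockouts alone carried the Cre transgene. Cre was driven by the albumin promoter, which acts in hepatocytes, and other liver cells of the knockouts therefore keep their reductase gene. From 4 weeks of age both genotypes ate a synthetic AIN-93G based diet for 8 weeks with lard, canola oil or a mixture of fish oil (menhadin) and fungal oil (ARASCO) as the added fat, and they were fasted for 4 h before the livers were taken. Sample labels give the fat as 7% and the series text as 6%. Each array held a pool of RNA from 3 mice, and 3 pools (9 mice) made up each of the 6 combinations of genotype and fat. The pool is the replicate, so the spread between pools mixes animals with handling and understates the spread between mice.

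In the methionine cycle, methionine adenosyltransferase makes S-adenosylmethionine, the methyl donor of most methyl transfers. Methyltransferases turn it into S-adenosylhomocysteine, which is split to homocysteine. Homocysteine is either methylated back to methionine, with betaine or a folate as the donor, or enters transsulfuration, where it is joined to serine and then cleaved to cysteine. Cysteine feeds glutathione, taurine and sulfate, and the liver holds most of the body's capacity for these steps.

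Cytochrome P450 reductase passes electrons to the microsomal P450 enzymes. The question here was whether its loss, or the kind of fat eaten, changed the transcripts of this pathway. Cbs, the cystathionine beta-synthase that commits homocysteine to transsulfuration, was lower in the knockout averaged over the diets. None of the other 7 genes passed the threshold in any comparison of genotype or diet. The threshold throughout was an adjusted p of 0.05 from limma, adjusted by Benjamini-Hochberg over all 12578 genes.

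Array medians ran from 5.23 to 5.29 on the log2 scale. The authors' normalization sets the arrays to a common distribution, so this evenness is no check of the arrays. Correlations between arrays of the same group were 0.993 to 0.997. The hepatocyte markers Alb, Apoa1, Ttr, Tat and Hnf4a were between 11.3 and 14.7 on every array. Por had no named probe set, and the deleted gene therefore gave no check of the genotype labels. All values below are deposited log2 expression values or differences of them, and levels of different genes are not compared because each probe set has its own response.

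The promoter of Cbs is shown because Cbs was the member whose transcript changed. Cbs lies on mouse chromosome 17 at 31612623 to 31637233 (GRCm38.p6, minus strand). The 300 bases below are the RefSeq promoter window of Cbs (chr17:31637156-31637455, minus strand), taken as 250 bases before a start and 50 after it. That start is not the outer end of the gene span given above, which also lies inside the window. Capitals mark the GC box GGGCGG on either strand.

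Cbs: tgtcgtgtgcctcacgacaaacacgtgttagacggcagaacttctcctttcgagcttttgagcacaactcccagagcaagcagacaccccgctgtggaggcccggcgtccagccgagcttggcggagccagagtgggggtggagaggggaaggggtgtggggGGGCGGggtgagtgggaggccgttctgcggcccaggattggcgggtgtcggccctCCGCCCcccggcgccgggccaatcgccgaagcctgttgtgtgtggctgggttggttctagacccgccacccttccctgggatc

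The Cbs window held 2 GC boxes, the letters bound by Sp1-type zinc finger factors, and at least 1 was found in 35.7% of 32851 RefSeq promoter windows of this length. RefSeq entries were found for 6 of the 9 genes, and GC boxes numbered 4 in the window of Gamt, 3 in Mat2a, 1 in Ahcy and 0 in Gnmt and Bhmt. The CCAAT letters on either strand were found in the windows of Mat2a, Gnmt, Bhmt, Ahcy and Cbs but not of Gamt, and in 37.4% of all windows. These matches describe the letters and not binding. Mat1a, Cth and Cdo1 were not matched.

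Cbs is described first, as the gene on which the comparison of genotypes turns. On lard the control pools stood at 11.26, 11.68 and 11.50, and the knockout pools at 10.92, 10.93 and 10.94. The knockout pools on lard were nearly alike and all lay below every control pool on that diet. On fish/fungal oil the control pools stood at 11.14, 11.18 and 11.25 and the knockout pools at 10.73, 10.83 and 10.56, again without overlap. Such non-overlap was seen in 16% of all genes on lard and in 10.9% on fish/fungal oil. On canola oil the control pools stood at 11.20, 10.88 and 11.17 and the knockout pools at 11.03, 10.71 and 11.19, and here the genotypes overlapped. Over all diets 4 of the 9 knockout pools lay below the lowest of the 9 control pools, and 5 control pools lay above the highest knockout pool.

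Averaged over the 3 diets Cbs fell by 0.38 ± 0.07 (SE) on the log2 scale in the knockout, a level 1.30-fold lower (95% interval -0.53 to -0.23, limma adjusted p = 0.00559). It was the 1 member of 8 past the threshold in this comparison, where 4.57% of all genes tested were called 0.755% lower and 3.82% higher. All genes called comprised 480 higher and 95 lower, and 400 higher and 163 lower when quantile normalization was repeated. The call on Cbs held in every reanalysis tried, including each of the 18 fits that left out an array, in which the change ranged from -0.41 to -0.33 with adjusted p from 0.00217 to 0.0141.

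Within single diets Cbs passed the threshold on lard alone. Its fall there was 0.55 ± 0.12, a level 1.46-fold lower (limma adjusted p = 0.0446), 1 member of 8 called against 0.986% of all genes, 0.0875% in the lower direction. That call ended when any of 12 of the 18 arrays was left out, with adjusted p up to 0.182 without control lard replicate 2. Without control lard replicate 3 it was 0.177, and without knockout lard replicates 1, 2 and 3 it was 0.138, 0.124 and 0.115. The other 7 such arrays, of the canola and fish/fungal groups, gave 0.0508 to 0.0592. It also ended with the mean of both probe sets (adjusted p = 0.0545) and with the replicate number as a block (adjusted p = 0.0648). On fish/fungal oil the difference was -0.48 ± 0.12 (adjusted p = 0.166), where 0.294% of genes were called. On canola oil it was -0.10 ± 0.12 (adjusted p = 0.993), where 0.0636% were called.

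The difference between diets in the knockout effect on Cbs was tested directly. The effect on canola oil was weaker than on lard by 0.45 ± 0.18 (95% interval 0.08 to 0.82, unadjusted p = 0.0211, adjusted p = 1) and differed from that on fish/fungal oil by 0.38 ± 0.18 (unadjusted p = 0.0458, adjusted p = 1). The F test of the interaction gave an unadjusted p of 0.0448 and an adjusted p of 1. No gene in the whole table passed this F test after adjustment (0% called), and 242 genes had an unadjusted p under 0.05, which is 1.92% of those tested. A dependence of the Cbs change on diet was therefore not established here.

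**Figure D1:**
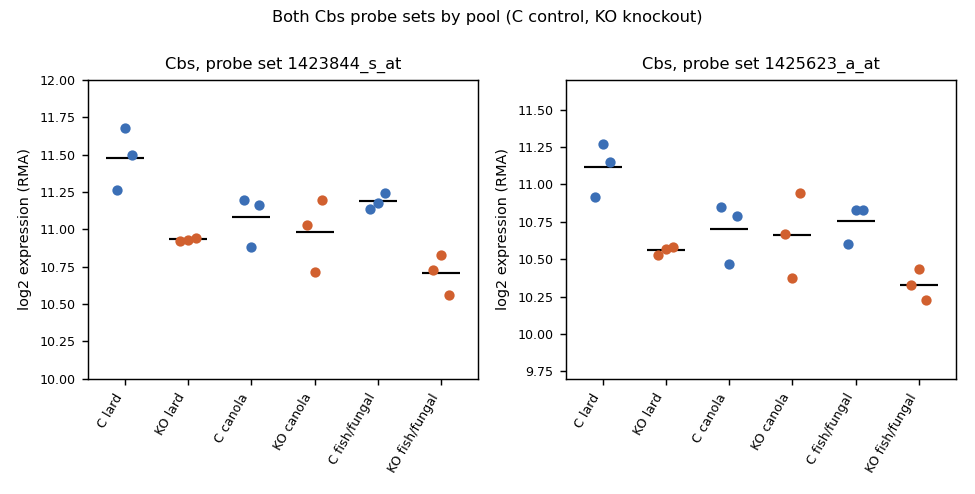
Log2 expression of Cbs by pool for both of its probe sets, in the 6 groups of genotype and diet (3 pools each, points, with the group mean as a black line, blue for control and orange for knockout). The 3 knockout pools on lard sit between 10.92 and 10.94 on the left panel, below all 3 control pools on lard, and the right panel shows the same arrangement of groups.

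Cbs had a second probe set, and it gave a like picture. Its knockout change was -0.34 ± 0.08 averaged over the diets, -0.55 on lard, -0.42 on fish/fungal oil and -0.04 on canola oil. The averaged change had an adjusted p of 0.0269 when limma was run on the 34945 probe sets with 1 named gene that are not array controls. In that fit the change on lard passed the threshold for neither Cbs probe set (adjusted p = 0.0698 for the brighter and 0.0961 for the other). The probe sets share transcripts and arrays (Pearson's r = 0.98 over 18 arrays), so they are not independent measurements. Both carry suffixes of the array maker for probes that match more than 1 transcript, _s_at for the brighter and _a_at for the other. Whether the brighter probe set also reads transcripts of another gene was not tested.

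Ordered by group mean, Cbs was highest in control lard (11.48 ± 0.21, SD, n = 3), then control fish/fungal (11.19 ± 0.06), control canola (11.08 ± 0.18), knockout canola (10.98 ± 0.24), knockout lard (10.93 ± 0.01) and knockout fish/fungal (10.71 ± 0.14). No neighbours in this order differed past the threshold. Within the control genotype lard stood 0.29 above fish/fungal oil (adjusted p = 0.534) and canola oil stood 0.40 below lard (unadjusted p = 0.00513, adjusted p = 0.996). Cbs pools of control lard lay above those of both other control diets without overlap. Non-overlap between 3 pools and 3 was seen in 13.6% of all genes for fish/fungal oil against lard in controls and in 8.61% for canola oil against lard.

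Cystathionine gamma-lyase, the product of Cth, takes the next step and releases cysteine. Its control pools on lard were 12.38, 12.65 and 12.65 and its knockout pools 12.34, 12.41 and 12.53. On canola oil controls were 12.32, 12.26 and 12.45 and knockouts 12.58, 12.48 and 12.55, and here every knockout pool lay above every control pool. On fish/fungal oil controls were 12.32, 12.75 and 12.84 and knockouts 12.66, 12.54 and 12.51. Cth thus overlapped between genotypes on lard and fish/fungal oil. Averaged over the diets its difference was -0.00 ± 0.06 (95% interval -0.14 to 0.13, limma adjusted p = 0.993). On canola oil it was 0.19 ± 0.11 (adjusted p = 0.912), and 11.3% of all genes showed such non-overlap on that diet.

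Cysteine dioxygenase, encoded by Cdo1, opens cysteine breakdown towards taurine and sulfate. Its pools ranged from 12.79 (control fish/fungal) to 13.24 (control lard) and overlapped between genotypes on every diet. The averaged difference was -0.09 ± 0.06 (95% interval -0.22 to 0.04, adjusted p = 0.494). On lard it was -0.21 ± 0.11 (unadjusted p = 0.0647, adjusted p = 0.521).

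**Figure D2:**
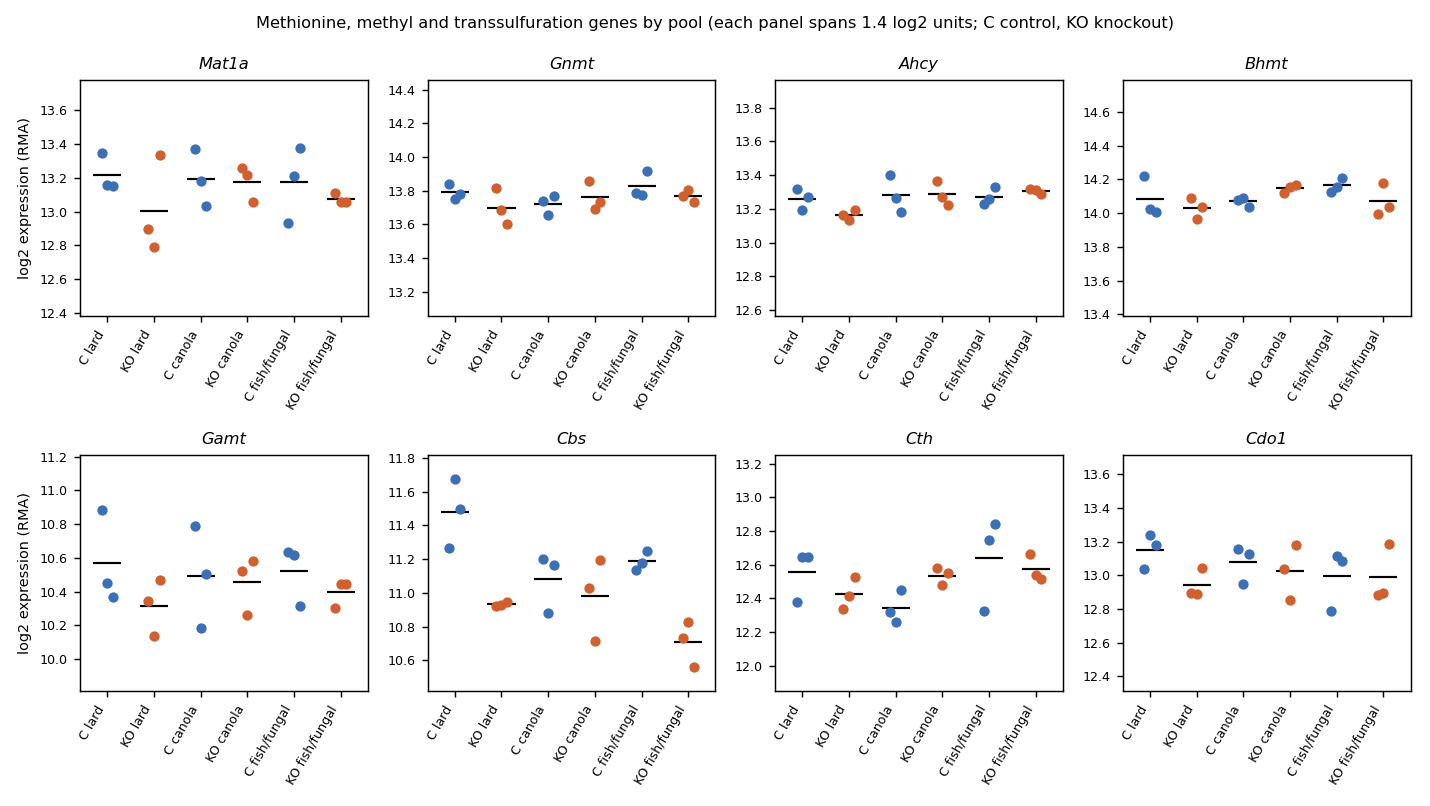
Log2 expression of the 8 measured genes by pool in the 6 groups of genotype and diet (points are pools of 3 mice, black lines are group means, blue control and orange knockout), with every panel spanning the same height. Cbs has the widest spread of the 8, from 10.56 to 11.68, and Bhmt the narrowest, from 13.96 to 14.22.

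None of the genes of the methionine cycle itself passed the threshold. Mat1a, the methionine adenosyltransferase of adult hepatocytes, stood at 13.35, 13.16 and 13.15 in control lard pools and at 12.90, 12.79 and 13.33 in knockout lard pools. One knockout pool on lard was as high as the controls while the other two were lower. Averaged over the diets the difference was -0.11 ± 0.07 (95% interval -0.27 to 0.05, limma adjusted p = 0.483).

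Gnmt encodes glycine N-methyltransferase, which uses up surplus S-adenosylmethionine. Its 18 pools lay between 13.60 and 13.92. The averaged knockout difference was -0.04 ± 0.04 (95% interval -0.11 to 0.04, adjusted p = 0.662). Control pools on fish/fungal oil lay above control pools on canola oil without overlap, by 0.11 ± 0.06 (adjusted p = 0.865), where 11% of all genes did not overlap.

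Ahcy encodes the hydrolase that splits S-adenosylhomocysteine and so relieves its block on methyltransferases. Its pools lay between 13.13 and 13.40. On lard the control pools were 13.32, 13.20 and 13.27 and the knockout pools 13.17, 13.13 and 13.19, just below the controls (difference -0.10 ± 0.06, adjusted p = 0.658). Of all genes 16% did not overlap between genotypes on lard. Among knockouts the fish/fungal pools lay above the lard pools (0.14 ± 0.06, unadjusted p = 0.0327, adjusted p = 0.526), an arrangement that 10.9% of all genes had in either direction. Averaged over the diets the knockout difference was -0.02 ± 0.04 (95% interval -0.09 to 0.06, adjusted p = 0.834).

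Bhmt, the betaine-homocysteine methyltransferase that remakes methionine, lay between 13.96 and 14.22 in every pool. Its knockout pools were above the controls on canola oil, at 14.12, 14.16 and 14.17 against 14.08, 14.09 and 14.04 (0.08 ± 0.06, adjusted p = 0.98), where 11.3% of all genes did not overlap. Control pools on fish/fungal oil were above those on canola oil as well, at 14.13, 14.16 and 14.21 (0.10 ± 0.06, adjusted p = 0.905), where 11% of all genes did not overlap. The sign differed between diets, and the averaged difference was -0.02 ± 0.03 (95% interval -0.10 to 0.05, adjusted p = 0.794).

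Gamt encodes guanidinoacetate N-methyltransferase, the last enzyme of creatine synthesis and a large user of methyl groups. Its pools ranged from 10.14 (knockout lard) to 10.89 (control lard), and it had the largest spread within groups of the 8 genes, 0.21 (SD). The averaged difference was -0.14 ± 0.09 (95% interval -0.33 to 0.05, adjusted p = 0.47), the largest after that of Cbs.

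All 8 genes had a lower mean in the knockout averaged over the diets and on lard, 7 on fish/fungal oil and 4 on canola oil. The share of all genes with a lower mean was not counted. Differences far smaller than their error enter this count, such as that of Cth on the average (-0.0019 ± 0.064). The genes were read from the same arrays, so their signs are not independent. The median difference of the 8 was -0.06 averaged over the diets and -0.17 on lard, beside -0.0047 and -0.0039 over all genes tested. For the 5 hepatocyte and 6 periportal markers tested the averaged medians were -0.0497 and -0.0452, and for the 8 pericentral markers 0.199. Of the 7 genes other than Cbs, the averaged difference ran from -0.14 for Gamt to -0.00 for Cth. The 95% intervals of these 7 together reached from -0.33 to 0.13, and the averaged estimate for Cbs, -0.38, lay outside them. The interval of Cbs itself, -0.53 to -0.23, overlapped those of Gamt and Mat1a, and differences between genes were not tested. On lard alone the intervals of the 7 reached from -0.58 to 0.10, and the interval of Gamt there included the change seen for Cbs.

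**Figure D3:**
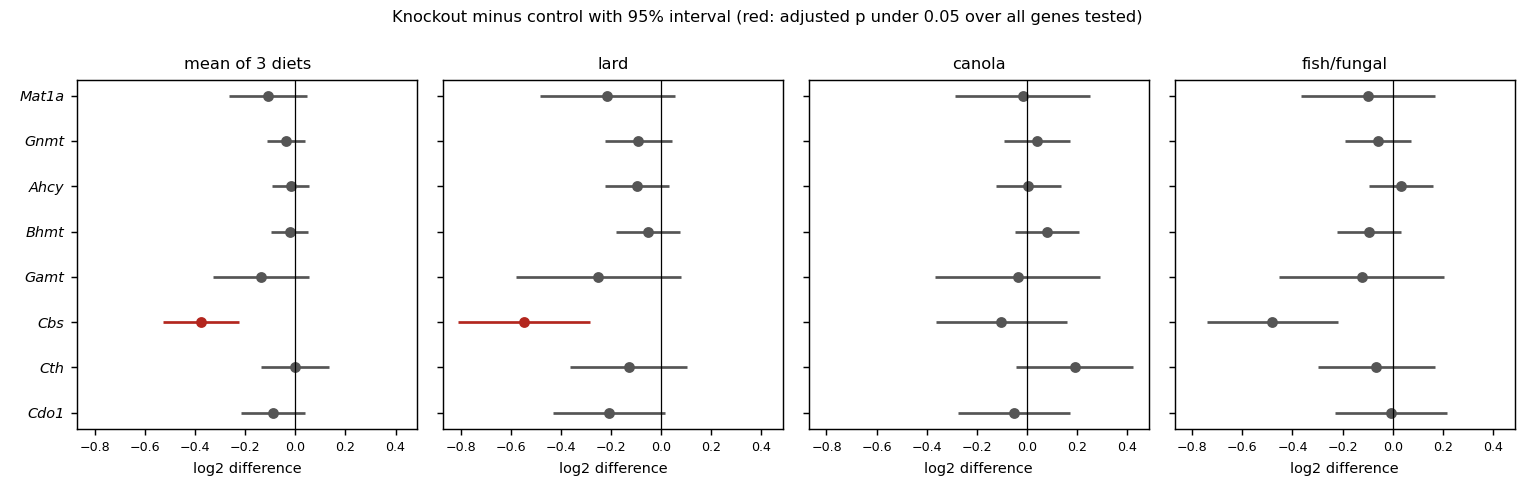
Log2 difference of knockout from control for the 8 genes, averaged over the diets and on each diet, with points for the estimate and lines for the 95% interval from limma. Cbs is marked red where its adjusted p was under 0.05, at -0.38 on the average and -0.55 on lard, and the intervals of the other 7 genes cross 0 in all 4 panels.

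Several of these probe sets lie in the upper part of the array's scale, where signals can be compressed. The 5 members with a mean above 13 (Mat1a, Gnmt, Ahcy, Bhmt and Cdo1) belong to 149 such genes, whose median range over the 18 arrays was 0.32 and median spread within groups 0.07 (SD). Over all genes tested these were 0.56 and 0.14. Highest values on the arrays reached 14.89. How far compression shaped the differences was not tested.

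The kind of fat was the other factor of the design. No member passed the threshold for any pair of diets in either genotype or over both. For fish/fungal oil against lard over both genotypes 0 of 8 members were called, where 2.32% of all genes were, and 1 member had an unadjusted limma p under 0.05 against 13.1% of all genes. That member was Cbs, at -0.26 ± 0.09 (95% interval -0.44 to -0.07, unadjusted p = 0.009, adjusted p = 0.173). Its pools on fish/fungal oil lay below those on lard without overlap within each genotype, as did 13.6% of genes in either direction in controls and 10.9% in knockouts.

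For fish/fungal oil against canola oil over both genotypes 0 of 8 were called, where 0.986% of all genes were. Cth had the lowest p among the 8, at 0.16 ± 0.08 (unadjusted p = 0.0503, adjusted p = 0.516). For canola oil against lard limma called 0 members and 0% of all genes, with 6.77% at an unadjusted p under 0.05 over both genotypes, 4.6% in controls and 4.83% in knockouts. Within single genotypes the genes called for fish/fungal oil against lard were 0.716% in controls and 0.461% in knockouts, and against canola oil 0.262% and 0.159%, with 0 members in each. Ahcy and Bhmt pools of knockouts lay higher on canola oil than on lard without overlap, as 10.4% of genes did in either direction. The comparisons of diets share pools with each other, so their values are not independent. Intervals of the 7 genes other than Cbs ran from -0.22 to 0.28 for fish/fungal oil against lard, from -0.25 to 0.33 for fish/fungal against canola oil, and from -0.22 to 0.26 for canola oil against lard.

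**Figure D4:**
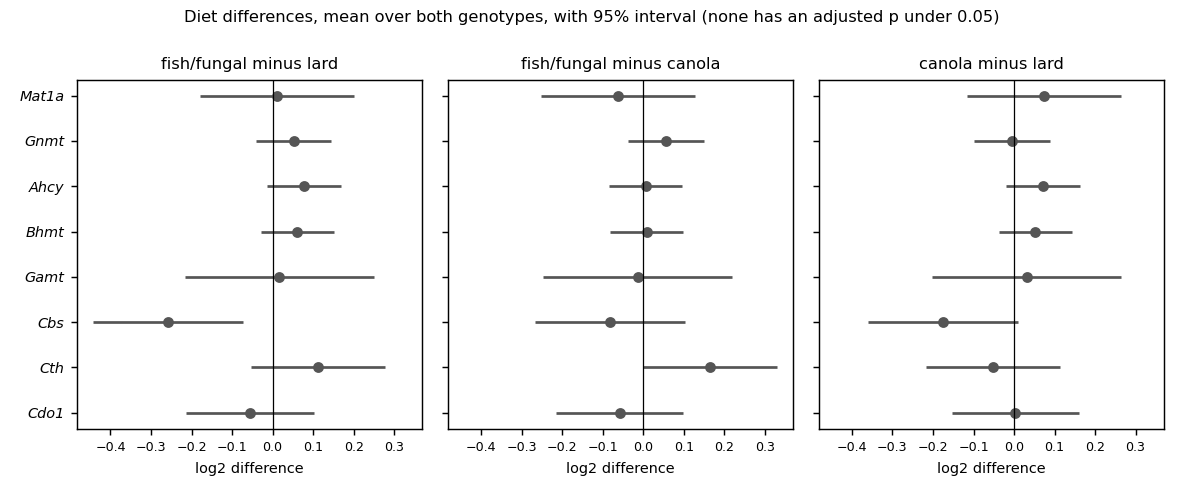
Log2 differences between diets for the 8 genes, averaged over both genotypes, with points for the estimate and lines for the 95% interval from limma. None passed the threshold, and the interval of Cbs for fish/fungal oil against lard, from -0.44 to -0.07, is the 1 that does not cross 0.

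Other genes of the pathway were read from lists drawn up with earlier results of these data known. Of 17 further genes of the methionine cycle and of methyl transfer, 0 were called in the averaged knockout effect (median 0.02), and 2 were lower on fish/fungal oil than on lard over both genotypes (median -0.12). The medians over all genes tested, which serve for the lists that follow too, were -0.0047 for the knockout and -0.00051 for fish/fungal oil against lard. The shares of all genes called, to be read beside each list too, were 3.82% higher and 0.755% lower for the knockout, and 0.541% higher and 1.78% lower for fish/fungal oil against lard. Gatm encodes the amidinotransferase that makes guanidinoacetate, the substrate of Gamt. It stood at 7.19, 7.63 and 7.44 in control lard pools and at 6.99, 6.77 and 7.13 in control fish/fungal pools. In knockouts it stood at 7.91, 7.74 and 7.81 on lard and at 7.52, 7.45 and 7.12 on fish/fungal oil, again without overlap. For these diets 13.6% of all genes in controls and 10.9% in knockouts did not overlap. For the knockout averaged over diets Gatm had the lowest p of this list, with a difference of 0.26 ± 0.08 (limma adjusted p = 0.0894). The fall from lard to fish/fungal oil over both genotypes was 0.46 ± 0.10 (limma adjusted p = 0.0199), and the change from lard to canola oil was -0.50 ± 0.10 with an adjusted p of 0.18, both measured against the same lard pools. The call on Gatm ended without any of 4 arrays (largest adjusted p 0.0679, control lard replicate 2 left out). As3mt, the arsenic methyltransferase, fell by 0.56 ± 0.14 from lard to fish/fungal oil (adjusted p = 0.0397). Leaving out an array lost the call on As3mt for 13 of 18 arrays, with the largest adjusted p, 0.099, reached without knockout lard replicate 3. It was also lost with repeated quantile normalization (adjusted p = 0.0609), centred arrays (0.0543), the replicate block (0.0571) and only the groups compared (0.091).

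Among 9 genes of choline and glycine breakdown none was called for the knockout (median 0.01) and Gldc was lower on fish/fungal oil (list median -0.01). Gldc encodes the glycine decarboxylase that loads the folate pool with methylene groups. Its pools on fish/fungal oil lay below those on lard within both genotypes. Such non-overlap, in either direction, was seen in 13.6% of all genes in controls and 10.9% in knockouts. Gldc fell by 0.37 ± 0.09 over both genotypes (limma adjusted p = 0.0248). The call on Gldc was lost for 5 of 18 arrays left out (largest adjusted p 0.0801, control lard replicate 2) and when only the groups compared entered the fit (0.0623). Glyat, the glycine acyltransferase, had the lowest p of this list for the knockout (-0.09 ± 0.04, adjusted p = 0.193).

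Of 17 tested genes of the folate pathway 0 were called for either factor (medians -0.03 for the knockout and -0.05 for fish/fungal oil against lard). For the folate carrier gene Slc19a1 the difference of fish/fungal oil from lard was 0.30 ± 0.08 (adjusted p = 0.0557), and for the folate receptor gene Folr2, which macrophages express, the knockout difference was 0.26 ± 0.10 (adjusted p = 0.173). Of 11 genes of polyamine synthesis and methionine salvage 0 were called either (medians 0.03 and 0.01), with Azin1, the antizyme inhibitor gene, at -0.18 ± 0.07 in the knockout (adjusted p = 0.177) and Mtap, the salvage phosphorylase gene, at 0.13 ± 0.06 on fish/fungal oil (adjusted p = 0.417).

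Cysteine breakdown held the largest diet difference among the lists of sulfur and methyl metabolism. Csad, the cysteine sulfinate decarboxylase that acts after Cdo1 on the way to taurine, stood at 8.46, 8.49 and 8.88 in control lard pools and at 8.81, 9.42 and 10.20 in control fish/fungal pools. In knockouts it stood at 8.65, 8.88 and 9.15 on lard and at 9.77, 9.74 and 10.03 on fish/fungal oil. The fish/fungal pools were higher than the lard pools, with overlap by 1 control pool only. Over both genotypes Csad rose by 0.91 ± 0.22 against lard (adjusted p = 0.038) and by 1.00 ± 0.22 against canola oil (adjusted p = 0.0371). Control canola pools stood at 8.41, 9.52 and 8.25 and overlapped the control fish/fungal pools. The call against canola oil was not repeated with arrays left out. The call against lard was lost for 9 of 18 arrays left out (largest adjusted p 0.105, knockout lard replicate 1). Csad was the 1 gene called of 11 tested on this list in both comparisons (list medians -0.08 against lard and -0.07 against canola oil).

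Ethe1, which encodes the mitochondrial persulfide dioxygenase, was higher in the knockout. On lard its control pools were 10.33, 10.41 and 10.20 and its knockout pools 10.73, 10.79 and 10.71, with no overlap, where 16% of all genes did not overlap. The genotypes did not overlap on fish/fungal oil either (10.9% of all genes), but on canola oil they did. Averaged over the diets it rose by 0.35 ± 0.08 (limma adjusted p = 0.0151). It was the 1 gene of the 11 called for the knockout (list median -0.01).

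Of 13 tested genes of glutathione synthesis and use, 2 rose in the knockout and none fell (median 0.08), where 3.82% of all genes rose and 0.755% fell, and none was called for fish/fungal oil against lard (median -0.04). Gpx4, the peroxidase that reduces lipid hydroperoxides with glutathione, rose by 0.26 ± 0.06 (adjusted p = 0.0179). On lard its control pools were 11.90, 11.76 and 11.89 and its knockout pools 12.25, 12.15 and 12.31. Its call ended when arrays were centred on the median of the genes tested (adjusted p = 0.0602). The glutaredoxin gene Glrx rose by 0.35 ± 0.09 (adjusted p = 0.0402). Its call was lost for 12 of 18 arrays left out (largest adjusted p 0.0905, knockout canola replicate 1), with repeated quantile normalization (0.055), with centred arrays (0.0523) and with the replicate number as a block (0.0577). Gclc, the catalytic subunit of the enzyme that joins cysteine to glutamate, was at 0.16 ± 0.08 in the knockout (adjusted p = 0.315) and at -0.37 ± 0.10 on fish/fungal oil (adjusted p = 0.0672).

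**Figure D5:**
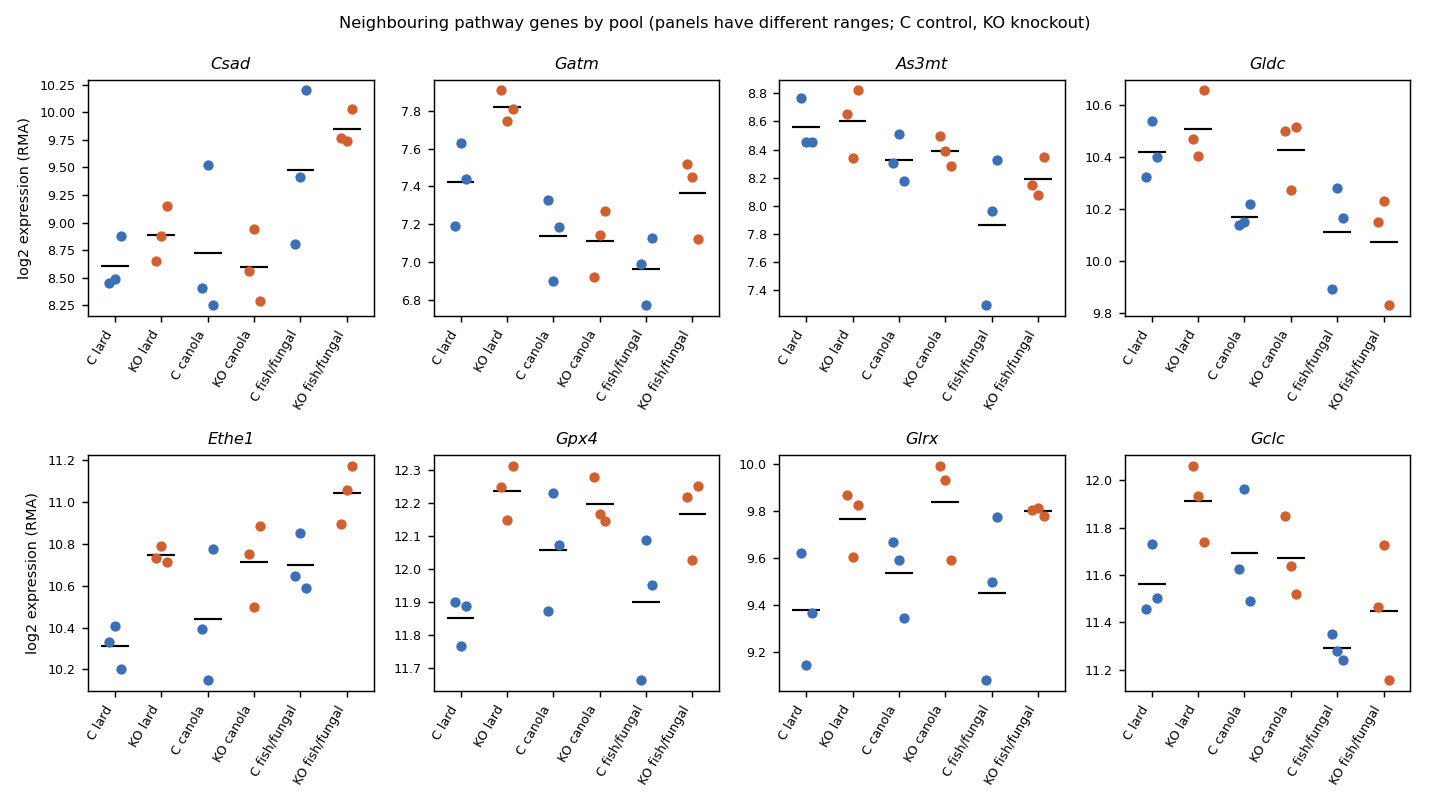
Log2 expression by pool of 8 neighbouring pathway genes in the 6 groups (points are pools of 3 mice, black lines are group means, blue control and orange knockout), each panel with its own range. Csad has its highest group means on fish/fungal oil in both genotypes, with a pool at 10.20, Gatm is highest in knockout lard (7.74 to 7.91), and Ethe1 on lard is higher in all knockout pools than in all control pools. On lard 16% of all genes did not overlap between genotypes.

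The integrated stress response, which raises genes of amino acid supply when translation initiation is curbed, counts Cth among its known targets. Of 15 tested genes of this list 2 rose in the knockout (median -0.0035), Trib3 (0.43 ± 0.08, limma adjusted p = 0.00497) and Asns (1.59 ± 0.31, limma adjusted p = 0.00679), beside 3.82% of all genes. Asns pools spread widely within groups. On lard they stood at 5.78, 7.43 and 6.22 in controls and at 8.95, 9.05 and 8.15 in knockouts, and 16% of all genes did not overlap there. On canola oil and on fish/fungal oil the genotypes overlapped for Asns. Its lowest control pool, 5.56 on canola oil, was near the array medians. On fish/fungal oil against lard Trib3 rose by 0.43 ± 0.10 (adjusted p = 0.0286), a call lost for 8 of 18 arrays left out (largest adjusted p 0.0888, control fish/fungal replicate 3) and with only the groups compared (0.0646). Atf5 fell by 1.04 ± 0.13 (limma adjusted p = 0.000146, list median -0.01).

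Some markers of macrophages, stellate cells and pericentral hepatocytes were higher in the knockout in the same arrays. Of 12 Kupffer cell and macrophage markers 5 were higher in the knockout and 0 lower. In this comparison 3.82% of all genes were higher and 0.755% lower, which serves for the other marker lists too. Their mean log2 level lay between 8.36 and 8.98 in control pools and between 8.71 and 9.53 in knockout pools. Of 8 pericentral hepatocyte markers 3 were higher, with mean levels of 9.87 to 10.3 in controls and 10.2 to 10.7 in knockouts. The pericentral list includes Cyp2e1 and Cyp1a2, genes of P450 enzymes that receive electrons from the reductase. Whether the higher values reflect the make-up of the liver was not tested. Of 10 stellate cell markers 1 was higher (7.62 to 7.95 in controls and 7.72 to 8.39 in knockouts). None of the 5 hepatocyte markers, 6 periportal markers, 7 endothelial, 3 cholangiocyte or 5 lymphocyte markers tested passed, and 1 of 3 pancreatic acinar markers was lower. The part of these shifts in the change of Cbs was not tested, and in bulk liver fewer cells of a type cannot be told apart from less RNA per cell.

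Correlations over the 18 arrays describe which genes varied alike, with group differences and array effects shared by all points. Among the 8 genes the strongest pair was Mat1a with Ahcy (Pearson's r = 0.67, and 0.73 for deviations from the group means). Cbs with Cdo1 had r = 0.55 (0.50 for deviations), and Cth with Cdo1 had 0.39 (0.61 for deviations). Cbs with Cth, the neighbouring steps of transsulfuration, had 0.26 (0.48 for deviations).

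Over all genes tested, the pair most like Cbs was Galt, the galactose-1-phosphate uridylyltransferase gene, and Cyp2u1, a long-chain fatty acid hydroxylase gene (r = 0.88 and 0.87). For Cdo1 these were Ceacam1 (0.88) and Polr2m (0.86), and for Gamt Map2k3 (0.86) and the glutamine transporter gene Slc38a3 (0.85). Bhmt was most like Nkrf (0.84) and Gpatch1 (0.81), and Ahcy most like 4933433N18Rik (0.82) and Fkbp5 (0.81). Cth was most like Ace (0.77) and Wdpcp (0.75), Gnmt most like Zkscan14 (0.76) and Naxe (0.76), and Mat1a most like Gpt2 (0.73) and Mrps30 (0.73).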

How the data were processed

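Liver RNA was measured on 18 Affymetrix Mouse Genome 430 2.0 arrays, each holding a pool from 3 mice. The deposited values are log2 expression values made by the authors with RMA, per the submitters' processing notes. Its software and version are not given in the sources used here. The log2 scale was read from the values, which run from 2.41 to 14.89. RMA normalizes the arrays to a common distribution, so a change shared by most genes would not show.

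Of 45101 probe sets 34958 had 1 gene symbol, 932 several and 9211 none named. Symbols were updated by gene ID with the RefSeq table of GRCm38.p6 (34754 probe sets matched). A gene was read from its probe set with the highest mean and tested if that lay above the array's median on at least 3 of 18 arrays. limma 3.58.1 in R 4.3.3 was fitted to all 18 arrays with a mean for each of the 6 groups and a prior variance that follows intensity. Tests were two-sided, with Benjamini-Hochberg adjustment over the genes tested. Errors of differences are standard errors and those of groups are SD of 3 pools. The script was tested on simulated data. The members and lists were chosen with earlier results of these data known. Named were all members, up to 5 genes past the threshold per list (or the lowest p where none passed) for the knockout averaged over diets and for fish/fungal oil against lard over genotypes, and the 2 genes most correlated with each member. Alternatives were repeated quantile normalization, centring, dropping the filter or raising it to the 75th percentile, averaging the probe sets of a gene, no trend, only the groups compared, the replicate number as a block, and each array left out in turn.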

Additional observations from a re-analysis of the deposited data

How the results depend on the processing

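The averaged knockout effect on Cbs kept its call in all 7 alternatives that could give a value (log2 change -0.40 to -0.36, adjusted p 0.00262 to 0.00971). The fit of only the groups compared gives nothing new for it or for the interaction, since both use all groups. On lard Cbs was called in 6 of 8 alternatives and in 6 of 18 fits that left out an array. The count of members past the threshold on lard, 1, became 0 with the mean of all probe sets and with the replicate block (adjusted p = 0.0648), and ranged from 0 to 1 when an array was left out. No other member was called in any comparison under any alternative.

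Counts of all genes called moved by more than 1.5 times as follows. Centring arrays gave 50 for fish/fungal against canola oil in controls (33 otherwise). The filter at the 75th percentile gave 70 for the knockout on lard (124 otherwise). The mean of all probe sets gave 24 for the knockout on fish/fungal oil (37 otherwise). With only the groups compared in the fit, the counts were 1 for the knockout on canola oil (8 otherwise), 22 for the knockout on fish/fungal oil, 12 for fish/fungal oil against lard in knockouts (58 otherwise), 10 for fish/fungal against canola oil in knockouts (20 otherwise) and 2 for canola oil against lard in controls (0 otherwise). The cause was not tested, beyond there being fewer samples in those fits.

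Leaving out each array gave 371 (without knockout canola replicate 2) to 698 genes for the averaged knockout effect, 30 (without control lard replicate 3) to 161 on lard, 3 (without control canola replicate 3) to 28 (without knockout canola replicate 3) on canola oil and 13 (without knockout fish/fungal replicate 2) to 43 on fish/fungal oil. For fish/fungal oil against lard it gave 41 (without control lard replicate 2) to 93 in controls, 12 (without knockout lard replicate 1) to 116 (without knockout fish/fungal replicate 2) in knockouts and 199 to 369 over both. For fish/fungal against canola oil it gave 19 (without control canola replicate 3) to 48 in controls, 5 (without knockout canola replicate 3) to 30 in knockouts and 76 (without knockout canola replicate 1) to 155 over both. For canola oil against lard it gave 0 to 2 in controls, 0 to 0 in knockouts and 0 to 4 over both, and for the interaction 0 to 1.

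Replicate numbers are shared by the groups, but same-numbered pools deviated alike in only 17 of 45 pairs (r over 0.1, median -0.01), and 8 of 18 pools were closest to their own number, so the numbers were not treated as pairs. With the replicate block the averaged knockout count was 538 and the count for fish/fungal against canola oil in knockouts 13 (20 without it). The number of pools, 3 per group, limits the precision.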
